A study of Mus musculus with 8 samples.

Results

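The genes of the epithelial NADPH oxidases and of inducible nitric oxide synthase were followed in the distal colon of mice with and without Siglec-XII. The 10 genes were chosen by symbol and function, with earlier results of these data known. They are Nox1, Noxo1, Noxa1, Cyba, Cybb, Duox2, Duoxa2, Duox1, Duoxa1 and Nos2. Each matched 1 of the 52143 genes in the deposited values. Bulk RNA-seq of colon was available for 4 control and 4 Siglec-XII samples. Controls carried Villin1-Cre-ERT, a tamoxifen-activated Cre recombinase driven by the promoter of the epithelial gene Villin1, and were littermates of the Siglec-XII mice. Siglec-XII mice carried SIGLEC12-Villin1-Cre-ERT, in which 1 allele of ROSA26 holds human SIGLEC12 under a CAG promoter and behind a floxed EGFP-stop cassette. All mice, controls included, were female, were 8 weeks old at the start, and received tamoxifen on 5 days (10 mg/ml), with colons taken 7 days after the last dose. The transgene was therefore switched on in the intestinal epithelium, while the RNA came from whole tissue.

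NADPH oxidases pass electrons from NADPH across a membrane to oxygen and release superoxide or hydrogen peroxide. In the colon, the catalytic subunit NOX1 works with p22phox (Cyba), the organizer NOXO1, the activator NOXA1 and the GTPase RAC1, whereas the related catalytic subunit of phagocytes, gp91phox (Cybb), shares p22phox. The dual oxidases DUOX1 and DUOX2 leave the endoplasmic reticulum only with their maturation factors, DUOXA1 and DUOXA2, and DUOX2 is known for its induction at mucosal surfaces that meet microbes. Nitric oxide synthase 2 (Nos2) makes nitric oxide from arginine and is induced by cytokines and microbial products.

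Levels are given as log2(TPM + 1), a length-corrected abundance whose TPM values add up to 1000000 in each sample. Read numbers cannot be recovered from TPM, and the depth of each sample is unknown here. The labels list 4 samples per group while the design text speaks of 3 mice per condition, and the methods describe 3 technical libraries per sample, so P values measure the spread between these samples, which may be technical. The epithelial keratins, cadherin and transcription factors that define the tissue were present, with a mean over 10 epithelial genes between 8.64 and 9.22 in the 8 samples. A set of 14 genes of stratified squamous epithelium, such as Krt14, also took 0.189% to 2.66% of all TPM in controls and 0.0971% to 0.651% in Siglec-XII samples. The median gene lay -0.15 lower in Siglec-XII samples, and 78.1% of the 13164 genes that reached 1 TPM in 4 or more samples had a difference below 0, so each difference below is to be read beside that shift. It was carried by Siglec-XII 3 and 4, whose median levels lay at -0.23 and -0.37 relative to the mean of the 8 sample medians, while Siglec-XII 1 and 2 (0.12 and 0.06) lay within the control range of -0.02 to 0.18.

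No call was made for these genes after adjustment over all genes. Of the 8 that entered the limma test, 0 passed at an adjusted P of 0.05, against 0.038% of all genes tested, and the smallest adjusted P among them was 0.515. At an unadjusted P of 0.05, 1 of the 8 passed (12.5%, against 8.87% of all genes tested, 7.67% lower and 1.19% higher), and this was Duoxa2, which was lower in Siglec-XII samples. The groups were fully separated for 0 of the 8, against 5.11% of all genes tested. The difference was below 0 for 7 of the 8, with a median of -0.33. Cybb and Nos2 were too low to enter the test across genes.

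In controls, Cyba was highest (7.26 ± 0.10, mean ± SD, n = 4), followed by Noxo1 (6.20 ± 0.13), Noxa1 (4.93 ± 0.24), Duoxa2 (4.44 ± 0.52), Nox1 (3.90 ± 0.64), Duox2 (3.83 ± 0.54), Duoxa1 (3.28 ± 1.45), Duox1 (1.79 ± 1.07), Cybb (0.90 ± 0.83) and Nos2 (0.57 ± 0.12). Only the neighbours Cyba and Noxo1, and Noxo1 and Noxa1, had control ranges that did not overlap. In Siglec-XII samples the order differed by 1 exchange, with Nox1 (3.78 ± 0.41) before Duoxa2 (3.76 ± 0.17), and these ranges overlapped. There, Noxa1 and Nox1, and Duoxa1 and Duox1, were also separated. Cyba exceeded Noxo1, Noxo1 exceeded Noxa1 and Duoxa1 exceeded Duox1 in 8 of 8 samples.

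**Figure D1:**
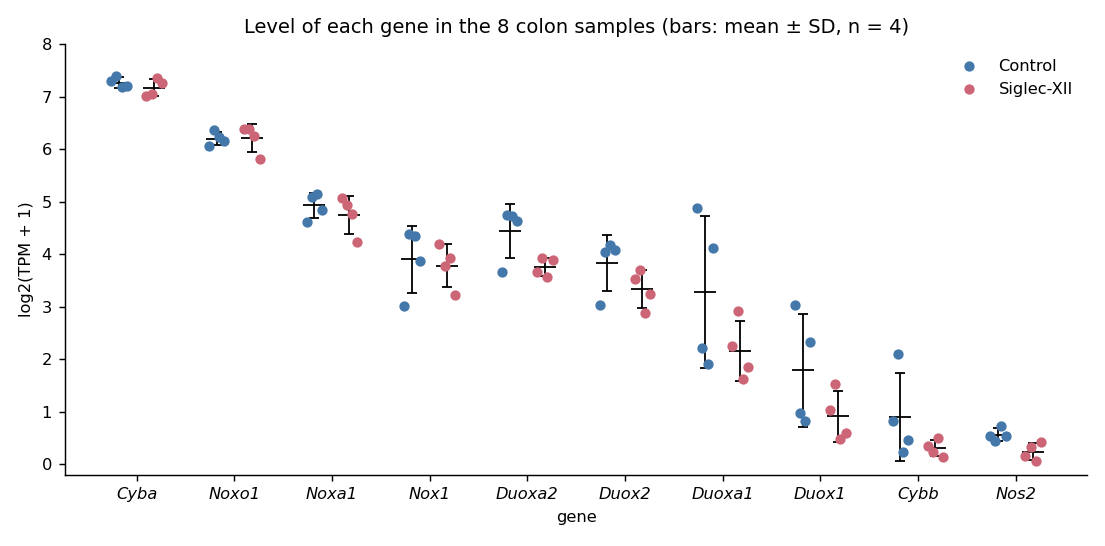
Level of each of the 10 genes, as log2(TPM + 1), in 4 control and 4 Siglec-XII samples, with points for samples and bars for the mean and SD (n = 4). Cyba and Noxo1 sit above 5.81 in every sample, Nos2 stays below 0.74, and Duoxa1 spreads from 1.61 to 4.88.

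NOX1 is the superoxide-producing subunit of the colon, encoded on the minus strand at chrX:134086421-134221956 (GRCm38, GENCODE M21). Nox1 measured 3.01, 4.38, 4.34 and 3.87 in control samples 1 to 4 and 4.19, 3.78, 3.92 and 3.22 in Siglec-XII samples 1 to 4. The groups overlapped, with the lowest value in control 1 and the next lowest in Siglec-XII 4. The difference was -0.12 (SE 0.323, 95% interval -0.85 to 0.61, limma adjusted P = 0.857), and it turned to 0.09 when each sample was centred on its median.

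NOXO1 organizes the complex at the membrane, and its gene lies on the plus strand at chr17:24696234-24700529. Noxo1 measured 6.05, 6.36, 6.23 and 6.16 in controls and 6.38, 6.38, 6.25 and 5.81 in Siglec-XII samples. Siglec-XII 1 and 2 lay above every control, and Siglec-XII 4 lay below all of them. The difference was 0.01 (SE 0.140, interval -0.31 to 0.32, limma adjusted P = 0.987). Of its exon bases, 70.4% are also exons of Tbl3, a gene on the opposite strand, and 63.3% of the 31-base stretches of its transcripts occur in Tbl3 transcripts on either strand. The library kit keeps strand but the strand setting of the quantification is not given in the sources used here, so reads of this pair may have been split between them. Tbl3 averaged 3.85 in controls and 3.54 in Siglec-XII samples, below Noxo1 in each group.

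NOXA1, the activating subunit (minus strand, chr2:25085667-25095149), stood 1 step below Noxo1. Noxa1 measured 4.62, 5.10, 5.15 and 4.84 in controls and 5.06, 4.94, 4.76 and 4.23 in Siglec-XII samples. The groups overlapped, and Siglec-XII 4 was the lowest sample. The difference was -0.18 (SE 0.196, interval -0.62 to 0.27, limma adjusted P = 0.668), and it was 0.04 with median centring.

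Cyba encodes p22phox, the membrane partner that NOX1 and gp91phox share (minus strand, chr8:122424776-122432930), and its mean level exceeded that of 93.5% of the genes tested. Cyba measured 7.29, 7.39, 7.17 and 7.20 in controls and 7.00, 7.06, 7.34 and 7.26 in Siglec-XII samples, a mean of 153 and 143.3 TPM. It varied least of the 10 genes, with all samples inside 0.39 log2 units. The difference was -0.10 (SE 0.102, interval -0.33 to 0.13, limma adjusted P = 0.644) and turned to 0.11 with median centring. For Nox1, Noxo1, Noxa1 and Cyba the intervals leave room for a change of up to -0.85 for Nox1 and -0.33 for Cyba, so equal levels were not shown.

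The 4 dual oxidase genes lie together within 68726 bases of chromosome 2, in 2 head-to-head pairs. Duox2 (minus strand, chr2:122279247-122298449) and Duoxa2 (plus strand, chr2:122298900-122302885) start 450 bases apart in GENCODE M21. RefSeq places the Duox2 start 222 bases further into the gene. Duoxa1 (minus strand, chr2:122302191-122313730) and Duox1 (plus strand, chr2:122315672-122347972) start 1941 bases apart. The 3′ parts of Duoxa2 and Duoxa1 overlap on opposite strands over 695 bases, and 42.8% of the exon bases of Duoxa2 and 17.1% of those of Duoxa1 are shared, so reads there cannot be assigned without strand. Duox1 and Duox2 share 13.4% and 10.3% of their 31-base stretches with each other, where reads could have been split between them.

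**Figure D2:**
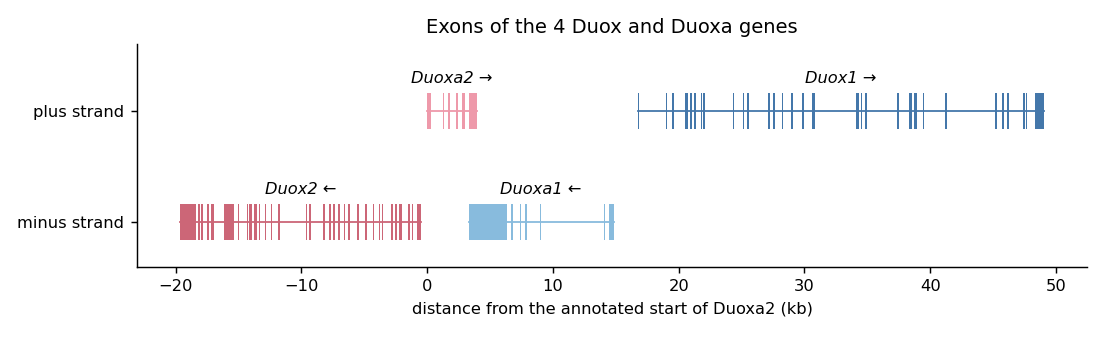
Exons of Duox2, Duoxa2, Duoxa1 and Duox1 by strand, against the distance in kb from the annotated start of Duoxa2. Each Duox gene starts beside its own maturation factor. In GENCODE M21, 450 bases lie between the starts of Duox2 and Duoxa2 and 1941 bases between those of Duoxa1 and Duox1.

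Of the 10 genes, 9 matched a promoter entry in RefSeq (GRCm38.p6). The RefSeq and GENCODE starts were the same for Duoxa2, Duoxa1 and Duox1. They lay 110102 bases apart for Nox1 and 18447 for Cybb, whose positions in this report are from GENCODE. The 250 bases before the start are shown for Duoxa2, the gene that passed at unadjusted P, and for Duoxa1 and Duox1, whose levels followed each other across the samples. Each is written 5′ to 3′ on the strand of its gene, with motif matches in capitals.
Duoxa2, chr2:122298650-122298899, plus strand: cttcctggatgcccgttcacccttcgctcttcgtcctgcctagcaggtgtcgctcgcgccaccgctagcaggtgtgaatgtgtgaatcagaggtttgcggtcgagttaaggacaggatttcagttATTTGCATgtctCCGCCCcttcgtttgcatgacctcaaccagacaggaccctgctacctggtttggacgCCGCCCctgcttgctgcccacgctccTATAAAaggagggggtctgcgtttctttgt
Duoxa1, chr2:122313731-122313980, minus strand: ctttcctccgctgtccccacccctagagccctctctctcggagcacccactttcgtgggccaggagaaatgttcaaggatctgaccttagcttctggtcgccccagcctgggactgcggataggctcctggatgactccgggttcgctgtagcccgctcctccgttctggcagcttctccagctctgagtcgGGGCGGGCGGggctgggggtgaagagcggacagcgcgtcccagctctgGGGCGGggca
Duox1, chr2:122315422-122315671, plus strand: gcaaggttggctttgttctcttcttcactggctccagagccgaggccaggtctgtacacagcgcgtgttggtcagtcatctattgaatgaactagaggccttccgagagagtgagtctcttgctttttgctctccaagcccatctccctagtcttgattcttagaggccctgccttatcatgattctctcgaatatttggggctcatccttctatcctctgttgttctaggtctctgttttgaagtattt
Both strands were searched for 5 motifs: the TATA box TATAAA (present in 12.4% of 32851 promoter windows of this length), the octamer ATTTGCAT (1.6%), the GC box GGGCGG (32.7%), the AP-1 site TGACTCA (4.46%) and the STAT site TTCNNNGAA (7.02%). The Duoxa2 window held a TATA box 30 bases before the start, an octamer at 125 bases, and GC boxes at 113 and 56 bases on the other strand, where they read CCGCCC. The Duoxa1 window held GC boxes at 58, 54 and 10 bases, the first 2 overlapping, and no TATA box. The Duox1 window held none of the 5. Its GC content was 47.6%, against 65.6% for Duoxa1 and 56.4% for Duoxa2, so these neighbours differed in the letters searched.

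Duoxa2 encodes the maturation factor of DUOX2 and was the 1 gene of the 8 tested with limma to pass at unadjusted P. It measured 3.67, 4.75, 4.72 and 4.63 in controls and 3.67, 3.93, 3.57 and 3.88 in Siglec-XII samples. Controls 2 to 4 lay above every Siglec-XII sample, while control 1 lay among them. Its mean was 21.7 TPM in controls and 12.6 TPM in Siglec-XII samples, a log2 difference of -0.68 (SE 0.241, interval -1.23 to -0.14). This passed the unadjusted threshold but not the adjusted one (limma adjusted P = 0.515), and the exact permutation test gave P = 0.114. Without control 1 the difference was -0.94 (limma adjusted P = 0.14). It was -0.47 with median centring and -0.49 with quantile normalization, and neither passed the unadjusted threshold. Nor did it pass without control 2 (-0.58), control 3 (-0.59), control 4 (-0.62) or Siglec-XII 3 (-0.62). In bulk tissue, fewer cells of a type and less RNA per cell cannot be told apart.

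Duox2, the hydrogen peroxide-producing partner of DUOXA2, showed the same sample pattern. It measured 3.03, 4.04, 4.18 and 4.07 in controls and 3.53, 3.70, 2.89 and 3.24 in Siglec-XII samples. Again controls 2 to 4 lay above all Siglec-XII samples and control 1 was low. The difference was -0.49 (SE 0.280, interval -1.12 to 0.14, limma adjusted P = 0.515). Without control 1 it was -0.76 and passed the unadjusted threshold (limma adjusted P = 0.447). It was -0.27 with quantile normalization, -0.28 with median centring and -0.34 without Siglec-XII 3, none past that threshold.

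Duoxa1, the maturation factor of DUOX1, varied far more between samples of 1 group than most genes, with a within-group SD above that of 98.5% of genes tested. It measured 4.88, 2.21, 1.90 and 4.12 in controls and 2.26, 2.91, 1.61 and 1.84 in Siglec-XII samples. Controls 1 and 4 were high, the other controls lay among the Siglec-XII samples, and Siglec-XII 2 was the highest of its group. The difference was -1.12 (SE 0.644, interval -2.58 to 0.34, limma adjusted P = 0.515).

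Duox1, the catalytic partner of DUOXA1, varied likewise, with a within-group SD above that of 96.7% of genes. It measured 3.03, 0.97, 0.82 and 2.32 in controls and 1.04, 1.54, 0.47 and 0.59 in Siglec-XII samples. The high samples were again controls 1 and 4, then Siglec-XII 2. The difference was -0.88 (SE 0.491, interval -1.99 to 0.23, limma adjusted P = 0.515). Without control 3, Duox1 (-1.20, limma adjusted P = 0.528) and Duoxa1 (-1.58, limma adjusted P = 0.52) passed the unadjusted threshold. Without control 1 the differences were -0.46 for Duox1 and -0.59 for Duoxa1, with array weights -0.17 and -0.27, and none of these passed.

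The same 3 samples were highest for stratified squamous genes, a list chosen after these values were seen. The mean over the 14 genes was 8.51, 6.02, 5.63 and 8.07 in controls and 5.98, 7.02, 4.89 and 5.05 in Siglec-XII samples. Krt14, a keratin of basal squamous cells, reached 12.47 in control 1 and 11.67 in control 4 and was 6.92 to 10.69 in Siglec-XII samples. Of the 14 genes, 14 had a difference below 0, against 78.1% of all genes tested. At unadjusted P, 1 passed, the desmosomal cadherin Dsg3 (-1.69, exact permutation P = 0.143). This was 7.14% of the list, against 7.67% of all genes tested that were lower. With the list mean added as a covariate, the difference was -0.01 for Duox1 and 0.02 for Duoxa1. It was -0.88 for Duoxa2 and -0.59 for Duox2 (limma adjusted P = 0.922 each). Duoxa2 passed the unadjusted threshold in this fit, as did 2.03% of all genes tested. Arg1, the arginase that competes for the substrate of nitric oxide synthase, was also highest in controls 1 and 4 (10.19 and 9.04). Because the list was chosen after these values were seen, the covariate fit cannot serve as a test of squamous tissue. The part of that tissue in the Duox1 and Duoxa1 values was not tested.

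**Figure D3:**
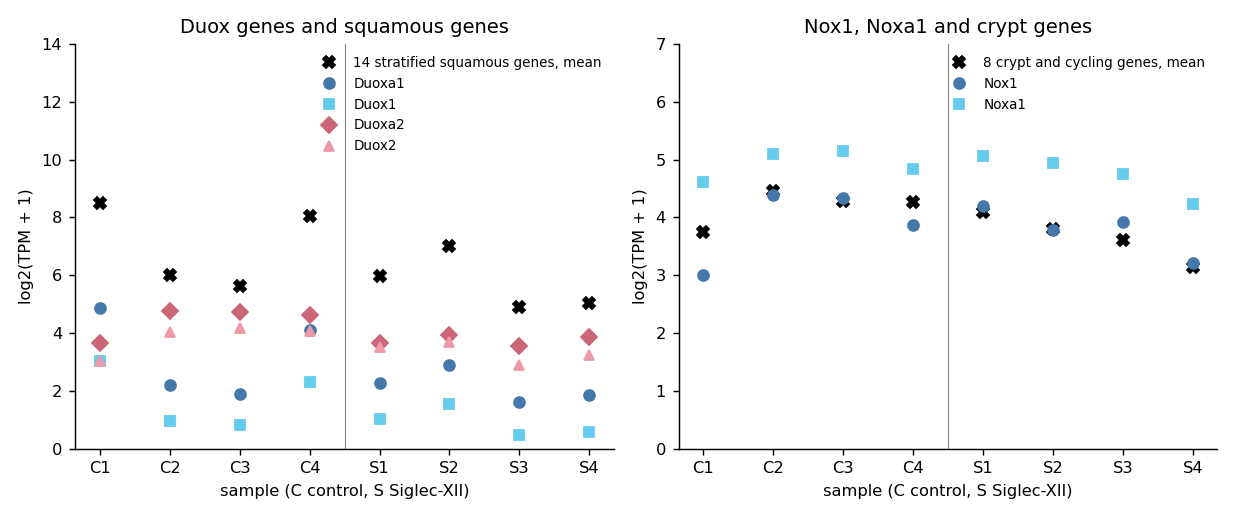
Left, log2(TPM + 1) of Duox1, Duoxa1, Duox2 and Duoxa2 with the mean of 14 stratified squamous genes in each sample. Right, Nox1 and Noxa1 with the mean of 8 crypt and cycling genes. C1 to C4 are controls and S1 to S4 Siglec-XII samples. Duox1 and Duoxa1 are highest in C1, C4 and S2, the samples with the highest squamous mean (8.51, 8.07 and 7.02). C1 and S4 are lowest of their groups for Nox1, Noxa1 and the crypt mean, and also for the epithelial mean (8.73 and 8.64).

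Control 1 and Siglec-XII 4 were the lowest samples of their groups for Nox1, for Noxa1 and for the mean of a list of crypt genes. The mean over 8 genes of crypt base and cycling cells was 3.76, 4.46, 4.28 and 4.26 in controls and 4.09, 3.81, 3.62 and 3.14 in Siglec-XII samples. Of these 8 genes, 3 passed at unadjusted P, all lower in Siglec-XII samples (37.5%, against 7.67% of all genes tested): the stem cell receptor Lgr5 (-0.47), the stem cell factor Ascl2 (-0.98) and the Wnt target Axin2 (-0.74). The proliferation markers Mki67 (2.41) and Top2a (4.13) were lowest of the controls in control 1, whereas Ascl2 was highest there (4.07). Of 6 smooth muscle genes, 3 were also lower at unadjusted P (50%, against 7.67% of all genes tested). Their median difference was -0.69, beside -0.15 over all genes tested. The mean over the 6 genes was 5.37 in Siglec-XII 4 and 6.33 to 6.50 in the other Siglec-XII samples. The part of these cells in the Nox1 and Noxa1 values was not tested.

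Cybb encodes gp91phox of phagocytes (minus strand, chrX:9435252-9487771). It measured 0.82, 2.09, 0.22 and 0.46 in controls and 0.34, 0.23, 0.49 and 0.15 in Siglec-XII samples. Control 2 stood above the rest and the groups overlapped. The difference was -0.60 (exact permutation P = 0.2), and -0.20 without control 2 (exact permutation P = 0.314). Control 2 was also the highest sample for the cytokine Il1b (3.09), the neutrophil receptor Cxcr2 (1.21) and the antimicrobial protein Lcn2 (5.80). The same held for the integrin Itgb2 (1.15) and the phagocyte oxidase subunit Ncf1 (0.92). All of these genes were picked after their values were seen. Other genes of phagocytes peaked elsewhere, S100a8 (5.39) and the integrin Itgam (2.45) in control 4, and the macrophage receptor Csf1r (1.04) and the lysosomal protein Cd68 (2.17) in control 1. The mean over 8 macrophage and leukocyte genes lay between 1.08 and 1.94 in controls (1.45 in control 2) and between 0.96 and 1.30 in Siglec-XII samples. The mean over 6 neutrophil genes lay between 2.58 and 3.50 in controls (3.30 in control 2) and between 1.67 and 2.22 in Siglec-XII samples. Within the neutrophil list, S100a8 (-2.61, limma adjusted P = 0.333) and S100a9 (-2.94, limma adjusted P = 0.515) were lower at unadjusted P. This was 66.7% of the 3 tested, against 7.67% of all genes tested. Ly6g, the other member tested and the most abundant, averaged 8.13 in controls and 8.15 in Siglec-XII samples, Elane was listed at 0 in all 8 samples, and Mpo was at most 0.11. The part of these cells in the Cybb values was not tested.

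Nos2 (plus strand, chr11:78920787-78960254) was the lowest of the 10 genes in each group. It measured 0.54, 0.44, 0.73 and 0.55 in controls and 0.15, 0.33, 0.06 and 0.43 in Siglec-XII samples, a mean of 0.485 and 0.188 TPM. Every control lay above every Siglec-XII sample, although the lowest control and the highest Siglec-XII sample were 0.44 and 0.43. The difference was -0.32 (exact permutation P = 0.0286, the smallest value that 70 labelings allow). Of 5310 genes below the filter with a mean of at least 0.2, 3.94% also had all Siglec-XII samples below all controls. The exact permutation P was 0.0857 after quantile normalization (difference -0.26), 0.343 after centring on epithelial genes (-0.25) and 0.6 after median centring (-0.11). It was 0.0571 without any 1 of the 4 controls, Siglec-XII 1 or Siglec-XII 3. These levels are below 1 TPM, and the reads behind them are unknown.

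Partner genes were then compared within each sample, which largely removes the scaling of a sample. Of 7 such comparisons, 0 passed (exact permutation, adjusted P from 0.867 to 0.943, 0 at an unadjusted P of 0.05). The smallest P that 70 labelings allow is 0.0286 (exact permutation), so 1 pair alone could not have passed after adjustment over the 7. Duox2 lay below Duoxa2 by -0.61 ± 0.08 in controls and -0.42 ± 0.28 in Siglec-XII samples (n = 4 each, exact permutation P = 0.314). Duox1 lay below Duoxa1 by -1.49 ± 0.39 and -1.25 ± 0.10 (exact permutation P = 0.371). Duox2 exceeded Duox1 by 2.04 ± 1.53 in controls and 2.43 ± 0.20 in Siglec-XII samples (exact permutation P = 0.771), and control 1 was the sample where both were level. Nox1 lay below Noxo1 by -2.30 ± 0.52 and -2.43 ± 0.20 (exact permutation P = 0.743), and below Noxa1 by -1.02 ± 0.40 and -0.97 ± 0.15 (exact permutation P = 0.914).

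Across the 8 samples, each Duox gene followed its own maturation factor. Duox1 and Duoxa1 had Pearson r = 0.997 (exact permutation P = 2.48e-05, adjusted over 7 pairs 0.000174) and Spearman rho = 1.0 (P = 4.96e-05, adjusted 0.000347). Without controls 1 and 4, the samples farthest from the median, r was 0.988 (exact permutation P = 0.00139). Duox2 and Duoxa2 had r = 0.909 (exact permutation P = 0.00449, adjusted 0.0107) and rho = 0.905 (P = 0.00456, adjusted 0.016), and r = 0.893 (P = 0.0444) without control 1 and Siglec-XII 3. With group means removed, r was 0.996 for the first pair and 0.896 for the second. Between the pairs, r over all 8 samples was -0.01 for Duox1 and Duox2 and -0.02 for Duoxa1 and Duoxa2, given as descriptions. Control 1 was the highest sample for Duox1 (3.03) and Duoxa1 (4.88). It was the lowest control for Duox2 (3.03) and Duoxa2 (3.67), and no r without it is given here. Whether Duoxa1 and Duoxa2, which share 682 exon bases, were unlike in the other samples was not tested.

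Nox1 followed Noxa1, with r = 0.863 (exact permutation P = 0.00459, adjusted 0.0107) and rho = 0.857 (P = 0.0107, adjusted 0.025). Without control 1 and Siglec-XII 4, r was 0.822 and no longer passed (exact permutation P = 0.0708). With each sample centred on epithelial genes r was 0.579, also not past the threshold (exact permutation P = 0.131, adjusted 0.306). Nox1 and Noxo1 had r = 0.764 (exact permutation P = 0.0274, adjusted 0.0479) and rho = 0.571 (P = 0.151, adjusted 0.176), and r fell to 0.196 (P = 0.731) without the same 2 samples, so that relation rests on them. Its adjusted P was between 0.0736 and 0.106 (exact permutation) without any 1 of control 1, 2 or 4 or Siglec-XII 1, 3 or 4. Nox1 and Cyba (r = -0.147, rho = 0.048), Cybb and Cyba (r = 0.625, rho = 0.643), and Duox2 and Nos2 (r = 0.576, rho = 0.69) did not pass, with exact permutation P of 0.729, 0.0805 and 0.14 for r and 0.935, 0.0962 and 0.0694 for rho. All pairs come from the same 8 samples and share their tissue makeup and scaling.

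**Figure D4:**
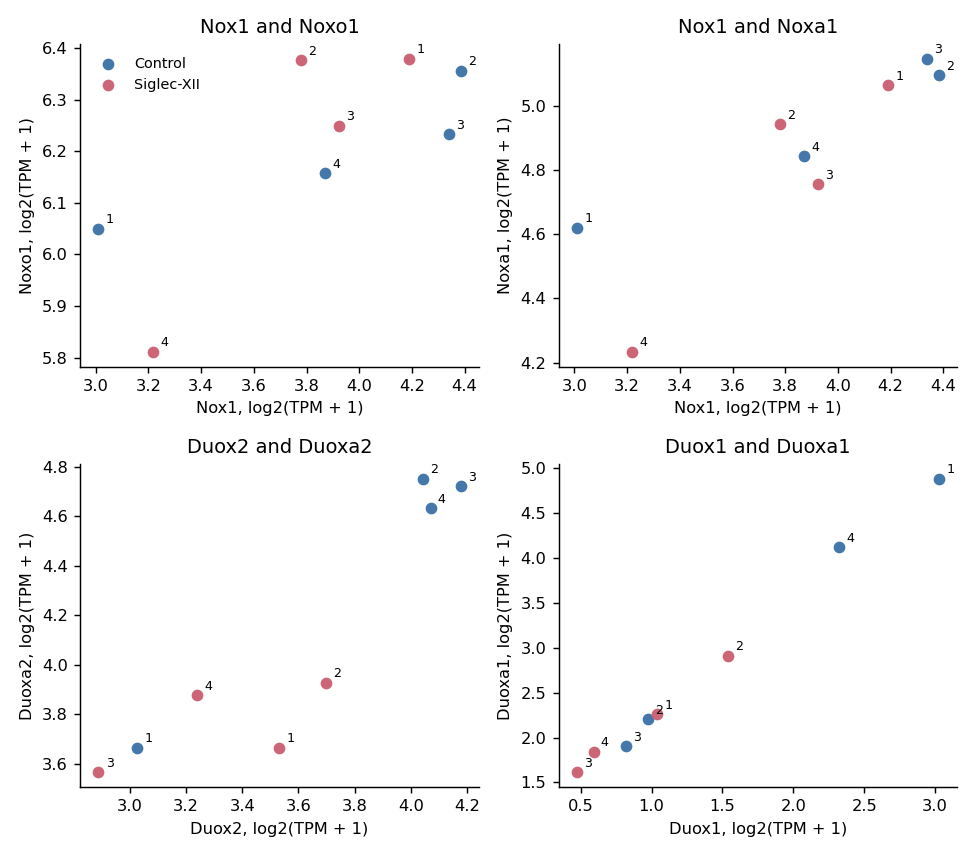
Level of each gene against its partner, both as log2(TPM + 1), with 1 point per sample in 4 control and 4 Siglec-XII samples. Duox1 and Duoxa1 lie nearly on a line (r = 0.997), Duox2 and Duoxa2 follow with control 1 at the low end (r = 0.909), and Nox1 with Noxo1 depends on 2 samples.

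The genes most like Nox1 over the 8 samples, of 13163 others, were Inpp1 (r = 0.984), Strip2 (0.984) and Kif20b (0.983), and Lpo, the lactoperoxidase that uses hydrogen peroxide, was the 7th (0.974). Noxa1 stood at rank 558 and Noxo1 at rank 1894. Those most like Duox2 were Zfp24 (0.983), Tldc1 (0.975) and Gm8989 (0.972), with Duoxa2 at rank 75. For Duox1, looked up after its values were seen, Clic3 (0.998) stood first and Duoxa1 (0.997) next, followed by Klk13 (0.997). These r values are descriptions over 8 samples that share tissue makeup and scaling.

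Of 82 genes in 7 lists of oxidase subunits, peroxidases, arginine and nitric oxide metabolism, peroxide removal, inducing signals and microbe-responsive epithelial genes, 59 entered the limma test. None passed after adjustment, 2 were higher and 4 lower at unadjusted P, a share of 10.2% beside 8.87% of all genes. The median difference was -0.08 beside -0.15 over all genes tested, and 39 of the 59 were below 0. Each of the 6 had a limma adjusted P of 0.515.

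Among the other subunits, 4 of 7 phagocyte genes were tested and 0 passed at unadjusted P, including the GTPase Rac1 (8.77 in controls, 8.71 in Siglec-XII samples). Of other oxidases and synthases, Nox3 was listed at 0 in all samples, Nox4 was at most 0.25, and Nos1 and Nos3 were at most 0.16. Lpo, the 1 heme peroxidase tested of 4, averaged 2.24 and 2.13. In arginine and nitric oxide metabolism, 10 of 13 were tested and 2 were lower at unadjusted P. These were Ass1, which rebuilds arginine (5.37 and 5.03, difference -0.35), and Ddah2, which removes methylated arginine inhibitors of nitric oxide synthase (-0.48). Arg1 differed by -2.05 and did not pass (limma adjusted P = 0.515).

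For the removal of superoxide and peroxide, 23 of 24 genes were tested and 0 passed at unadjusted P, with 18 below 0. Prdx6, a peroxiredoxin and the highest of the list, averaged 12.36 and 12.24, the epithelial glutathione peroxidase Gpx2 9.22 and 9.12, and catalase (Cat) 5.21 and 4.88. Hmox1, which breaks down heme, was highest in controls 1 and 4 (3.83 and 3.64).

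Of 17 genes of inducing signals, 11 were tested. The interferon-gamma receptor chain Ifngr2 was higher at unadjusted P (0.26), and the transcription factor Nfkb1 was lower (-0.52). The cytokines Ifng and Il22 were listed at 0 in all 8 samples. Among microbe-responsive epithelial genes, 7 of 10 were tested, and serum amyloid Saa2 was higher at unadjusted P (1.41 and 1.86, difference 0.45). The count of 6 over the lists moved when single samples were left out, and so did the share of all genes passing. The count was 0 without control 4 (5.04% of all genes) and 12 without Siglec-XII 1 (18%). It was 2 without control 2, Siglec-XII 3 or Siglec-XII 4 (6.46%, 3.67% and 4.28% of all genes).

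**Figure D5:**
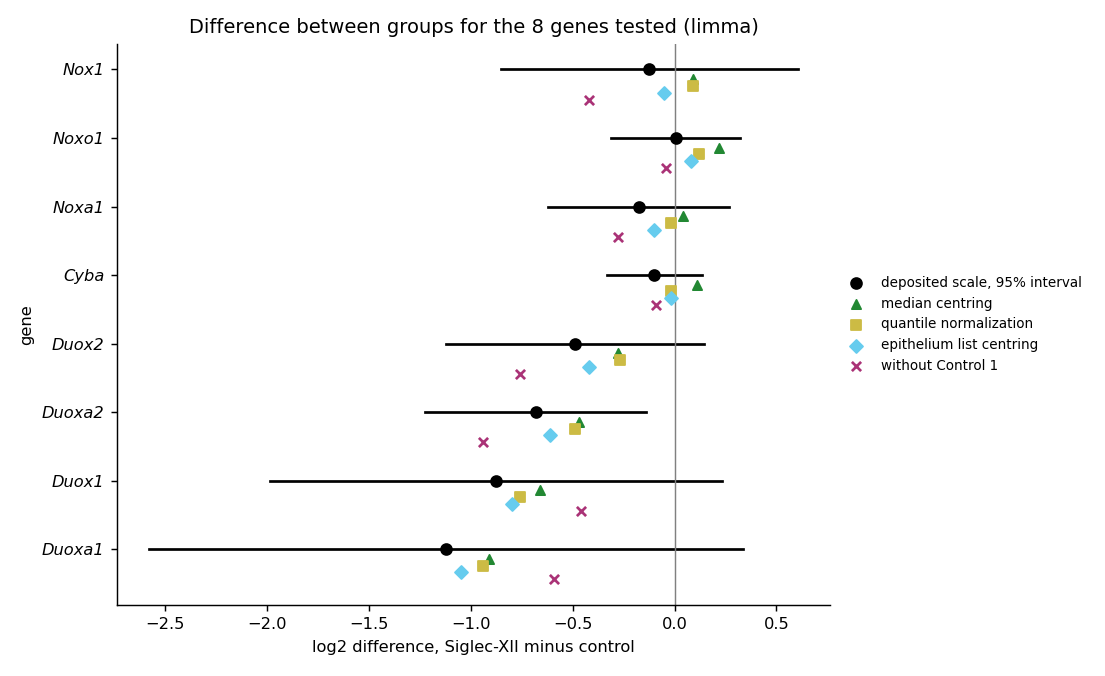
Log2 difference (Siglec-XII minus control) of the 8 genes tested with limma, with the 95% interval on the deposited scale, and the same difference under other scalings and without control 1. The interval of Duoxa2 (-1.23 to -0.14) is the 1 that excludes 0, and Nox1, Noxa1 and Cyba turn above 0 with median centring.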

How the data were processed

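RNA-seq of 4 control and 4 Siglec-XII colon samples was used, grouped by the labels. The authors deposited log2(TPM + 1) per gene. The submitters' processing notes name kallisto 0.45.0 and GRCm38, the paper's methods name another version and a human reference, and 98.3% of the deposited gene identifiers are in GENCODE M21 (GRCm38), which gave the positions. The gene counts that the methods name were not used here. Labels name a total RNA kit and the methods an mRNA kit.

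Genes reaching a TPM of 1 in at least 4 samples (13164) were compared with limma 3.58.1 in R 4.3.3 (trend, Benjamini-Hochberg). The fit was tested on simulated data. Single values were compared with exact permutation tests (two-sided, 70 labelings), and correlations over 40320 pairings, with Python 3.11.15, numpy 2.4.6, scipy 1.17.1, pandas 2.3.3 and matplotlib 3.10.9. No 2 samples were identical (r over genes 0.945 to 0.987). TPM differences understate the change of low genes because 1 is added before the log2.

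The 10 genes and the lists were chosen with earlier results of these data known. All 10 are named. Other list genes are named where they passed at unadjusted P, stood highest or lowest in their list, or define a role, and for Nox1 and Duox2 the 3 genes most alike are given. The squamous list and its covariate fit, the genes most alike Duox1, and Hmox1, Arg1, Il1b, Lcn2, Cxcr2, Itgb2, Ncf1, Itgam, Csf1r, Cd68, Mki67 and Top2a beside single samples were chosen after values were seen. Alternatives were no filter or a TPM of 5, a pseudocount of 0.1, quantile normalization, centring on the median or on the epithelial list, array weights, the replicate number as a block, and each sample left out. Lists of epithelium (10 tested, 0 at unadjusted P), macrophages and leukocytes (3 tested, 0), surface colonocytes (6 tested, 0 at unadjusted P), smooth muscle (6 tested, 3 lower), eosinophils and B cells (0 tested each) and endothelium (1 tested, Pecam1, lower) were also run. Of all genes tested, 7.67% were lower at unadjusted P. A further gene of the pathway lists is included in the counts and is not reported here.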

Additional observations from a re-analysis of the deposited data

Results flagged for a closer look

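In 2 cases 1 control sample lay far from the other 3, judged by its gap to the nearest other control relative to the whole span of the 4 controls. For Duoxa2, control 1 was at 3.67 and the other controls between 4.63 and 4.75, a relative gap of 0.89. For Duox2, control 1 was at 3.03 and the others between 4.04 and 4.18, a relative gap of 0.884. Chance gives such a gap in about 1 in 20 groups, so 1.7 would be expected among the 34 groups examined. Both values come from the same sample, in which the squamous genes were also highest (8.51), and the part of that tissue in these values was not tested.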

How the results depend on the processing

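No gene passed limma at adjusted P, and no partner difference passed, under any alternative run. With the replicate block no partner difference could pass, since the smallest exact paired P is 0.125. The count at unadjusted P, 1 as reported, was 0 with quantile normalization, 3 with array weights (Duoxa2, Duox2 and Cyba, the last -0.19) and 0 to 2 when 1 sample was left out. Of all genes tested, 8.48%, 14.1% and 3.67% to 18% passed in these fits. With median centring the 1 gene was Noxo1 (0.22) in place of Duoxa2, where 10.8% of all genes passed. The count by exact permutation, 1 as reported (Nos2), was 0 with quantile normalization and epithelial centring, and 0 to 1 when 1 sample was left out. With the replicate block it was 0, where no gene could pass because the smallest exact paired P is 0.125. Fewer labelings remain when 1 sample is left out, and the Nos2 groups stayed fully separated in each such run. The count was also 1 with median centring and without control 1, but the gene was then Noxo1 and Duoxa2, not Nos2. Of the correlations, 4 as reported, 2 passed with epithelial centring (both Duox pairs, not Nox1 with Noxa1 or Noxo1). The list count of 6 ranged from 0 to 12 when 1 sample was left out, where 3.67% to 18% of all genes passed. The cause of these shifts was not tested.

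Differences turned sign for Nox1 with quantile normalization (0.09) and median centring (0.09), Noxa1 (0.04) and Cyba (0.11) with median centring, Duoxa1 with the squamous covariate (0.02), and Duox1 minus Duoxa1 with a pseudocount of 0.1 (-0.07). The Nox1 and Noxo1 r was -0.153 with epithelial centring. When 1 sample was left out, ranges that crossed 0 were -0.42 to 0.06 for Nox1, -0.05 to 0.14 for Noxo1, -0.14 to 0.16 for Nox1 minus Noxa1, -0.30 to 0.82 for Duox2 minus Duox1, -0.33 to 0.19 for Nox1 minus Cyba, -0.38 to 0.01 for Nox1 minus Noxo1, and -0.499 to 0.044 for the Nox1 and Cyba r. Among single values, 23 turned sign, 19 lost the threshold, and 279 kept direction and side of it. The threshold is on adjusted P for limma, partner differences and correlations and on exact P for Cybb and Nos2. Only Nos2 and the 4 correlations reported as passing could lose it. For the rest, keeping their side means that they again did not pass. The filter at a TPM of 5 left out Duox1 and Duoxa1.

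The numbers 1 to 4 do not pair the samples. Same-numbered samples had deviations correlated at -0.165, -0.204, 0.103 and -0.002. With the replicate block the count at unadjusted P was 1 (Duoxa2, -0.68), and Nos2 reached an exact paired P of 0.125, the smallest that 4 pairs allow. The depth behind TPM is unknown, and 4 samples per group limit the precision.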
